A study of Mus musculus with 9 samples.

Results

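Ubiquitin-conjugating enzymes, or E2 enzymes, were examined in mouse erythroblasts with intact or missing adult beta-globin genes. The family was taken as every gene whose symbol on the array platform begins with Ube2 followed by a letter and that has at least 1 probe set listed for that symbol alone. It held 35 genes of 19938 so named on the array, on 48 of 21789 such probe sets, and the probe set with the highest mean over the 9 arrays stood for each gene. Ube2cbp met the rule by its symbol, although its product binds E2 enzymes and is not one. Enzymes named by the family's number but listed under other symbols, or that had no probe set of their own symbol, were not members.

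The samples were erythroblasts sorted from mouse fetal livers at E14.5, with 3 wild type, 3 Th3/+ and 3 Th3/Th3 samples and 1 array each. Th3 is an allele that removes the adult beta-globin genes, so that Th3/+ cells carry 1 such allele and Th3/Th3 cells carry 2. All embryos came from crosses of Th3/+ parents on a 129SV background backcrossed to C57BL/6 for 9 generations, and all cells were selected for CD71, Ter119 and high forward scatter, which marks large cells. The labels call the replicates biological and do not say whether each was 1 embryo or a pool, so p-values measure the spread between these samples.

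Ubiquitin is attached to proteins by a relay of enzymes. An activating enzyme (E1) loads ubiquitin and passes it to the active-site cysteine of an E2, and the E2, guided by a ligase (E3), transfers it to the target or builds a chain whose type depends largely on the E2. Some E2 enzymes carry relatives of ubiquitin instead, such as SUMO, NEDD8 or ISG15. In maturing red cells this system clears proteins and organelles, and Ube2o and Ube2h are members known for a strong rise late in that process.

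The adult beta-globin probe sets, a pair shared by several near-identical genes, set the Th3/Th3 arrays clearly apart. The brighter of the pair gave 13.84 ± 0.03 (log2 signal, SD, n = 3) in wild type and 9.47 ± 0.86 in Th3/Th3 arrays (limma, adjusted p = 9.75e-05). It gave 13.77 ± 0.03 in Th3/+ arrays, a difference of -0.07 from wild type that was not called, so this check does not bear on the Th3/+ label. Of 7 erythroblast markers with a probe set, 0 were at or below the 40th percentile on every array, and 5 fell from wild type to Th3/Th3. Of all genes tested, 5.37% were called lower in that comparison. Of markers of other cell types with a probe set, 2 of 12 for macrophages (Mrc1 and Cd163), 5 of 9 for lymphoid cells (among them Ptprc and Rag1) and 4 of 10 for endothelial and stromal cells (among them Cdh5 and Kdr) did not exceed the 40th percentile on any array, while 9, 4 and 6 of these lists passed the filter. Th3/+ replicate 1 and Th3/Th3 replicate 1 stood apart on the second principal component (20.5 and 25.5, against -14.9 to 7.71 for the others). Of 9 macrophage markers tested, 2 (C1qb and Fcer1g) were called lower in Th3/Th3, beside 5.37% of all genes. All 9 had negative differences from wild type (median -0.47). For 7 of them the Th3/Th3 and wild type arrays did not overlap, beside 27.9% of all genes. The summed linear signal of the macrophage list was 398 to 518 in wild type and 329 to 360 in Th3/Th3. The part of macrophage transcripts in the results below was not tested. Of the hepatoblast, megakaryocyte, granulocyte and mast cell, lymphoid, and endothelial and stromal markers, 0 were called. On no array above the 40th percentile were 0 of 9 hepatoblast, 0 of 6 megakaryocyte, and 4 of 10 granulocyte and mast cell markers. The summed linear signal of hepatoblast markers was 1371 to 2008 in wild type, 1356 to 2590 in Th3/+ and 1262 to 2091 in Th3/Th3. That of megakaryocyte markers was 824 to 1140 in wild type, 896 to 1092 in Th3/+ and 643 to 747 in Th3/Th3. The Th3/Th3 arrays thus lay below all others for the megakaryocyte sum. The part of such cells in the results below was not tested. Array medians lay between 4.97 and 5.05.

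Th3/Th3 against wild type asked how the loss of both adult beta-globin alleles went with the levels of the family. Of the 35 genes, 31 passed the filter on low values, and 7 of these fell while 2 rose (limma, Benjamini-Hochberg adjusted p under 0.05; the filter asked for a signal above the 40th percentile of the array on at least 3 of 9 arrays). The genes that fell were Ube2o, Ube2c, Ube2e3, Ube2h, Ube2r2, Ube2l6 and Ube2d2b, by 1.61-fold to 2.01-fold. Those that rose were Ube2g2 (2.12-fold) and Ube2q1 (1.52-fold). Over all 12898 genes tested the same way, 5.37% were called lower and 7.71% higher (13.1% in either direction), against 22.6% lower and 6.45% higher of the E2 genes. The median difference over the family was 0.03, beside -0.00038 over all genes. Without wild type replicate 3 the members called lower were 4 (Ube2c, Ube2e3, Ube2h and Ube2o). All differences are of mean log2 signal, a difference of 1 being 2-fold.

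Ube2o is a large enzyme that joins E2 and E3 activity in 1 protein, and in late red cell precursors it tags ribosomal proteins and unassembled alpha globin for destruction. It held 10.85, 10.73 and 11.11 on the wild type arrays, 11.16, 11.20 and 11.12 on the Th3/+ arrays, and 9.93, 9.75 and 10.001 on the Th3/Th3 arrays. The Th3/Th3 arrays lay below all others, and every Th3/+ array lay above every wild type array. In Th3/Th3 its signal was 2.01-fold lower than in wild type (SE 0.12 on the log2 scale, adjusted p = 0.000873).

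Ube2h is the E2 partner of the CTLH ligase complex, which takes part in red cell maturation. It held 10.58, 10.79 and 10.98 for wild type, 10.83, 11.001 and 10.79 for Th3/+, and 9.85, 9.61 and 10.17 for Th3/Th3. Wild type and Th3/+ arrays overlapped, and all 3 Th3/Th3 arrays lay below them. The fall from wild type to Th3/Th3 was by 0.91 (SE 0.16, adjusted p = 0.00565).

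Late erythroid markers moved with these changes. Of 17 measured markers of late erythroblasts, such as Slc4a1, Epb42 and Alas2, 16 fell in Th3/Th3 and 0 rose, with a median difference of -0.85. Over all genes tested 5.37% were called lower. Their summed linear signal was 64785 to 75552 in wild type, 66340.5 to 68895 in Th3/+ and 30518 to 37694 in Th3/Th3. The part of cell maturity in the fall of Ube2o and Ube2h was not tested. In sorted bulk samples, fewer cells of a stage and less RNA per cell cannot be told apart.

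Ube2c and Ube2s work in turn with the anaphase-promoting complex, the ligase that drives exit from mitosis, Ube2c starting ubiquitin chains and Ube2s extending them. Ube2c held 11.15, 11.14 and 11.18 for wild type, 10.94, 10.97 and 10.93 for Th3/+, and 10.29, 9.94 and 10.28 for Th3/Th3. The 3 genotypes did not overlap, in the order of the number of Th3 alleles. The difference between Th3/Th3 and wild type was -0.99 (SE 0.10, adjusted p = 0.000522). Ube2s held 11.40, 11.30 and 11.23 for wild type, 11.50, 11.07 and 11.13 for Th3/+, and 11.47, 11.14 and 11.11 for Th3/Th3. Its genotypes overlapped throughout, and the difference of -0.07 had an interval of -0.38 to 0.23 (adjusted p = 0.802). Whether the responses of Ube2c and Ube2s differed was not tested. Of 21 mitosis markers measured, 11 fell and 0 rose in Th3/Th3 (median -0.68), beside 5.37% of all genes called lower. The summed linear signal of these markers was 35907 to 40087 in wild type and 25744 to 27936 in Th3/Th3. The part of the share of dividing cells in the fall of Ube2c was not tested.

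**Figure D1:**
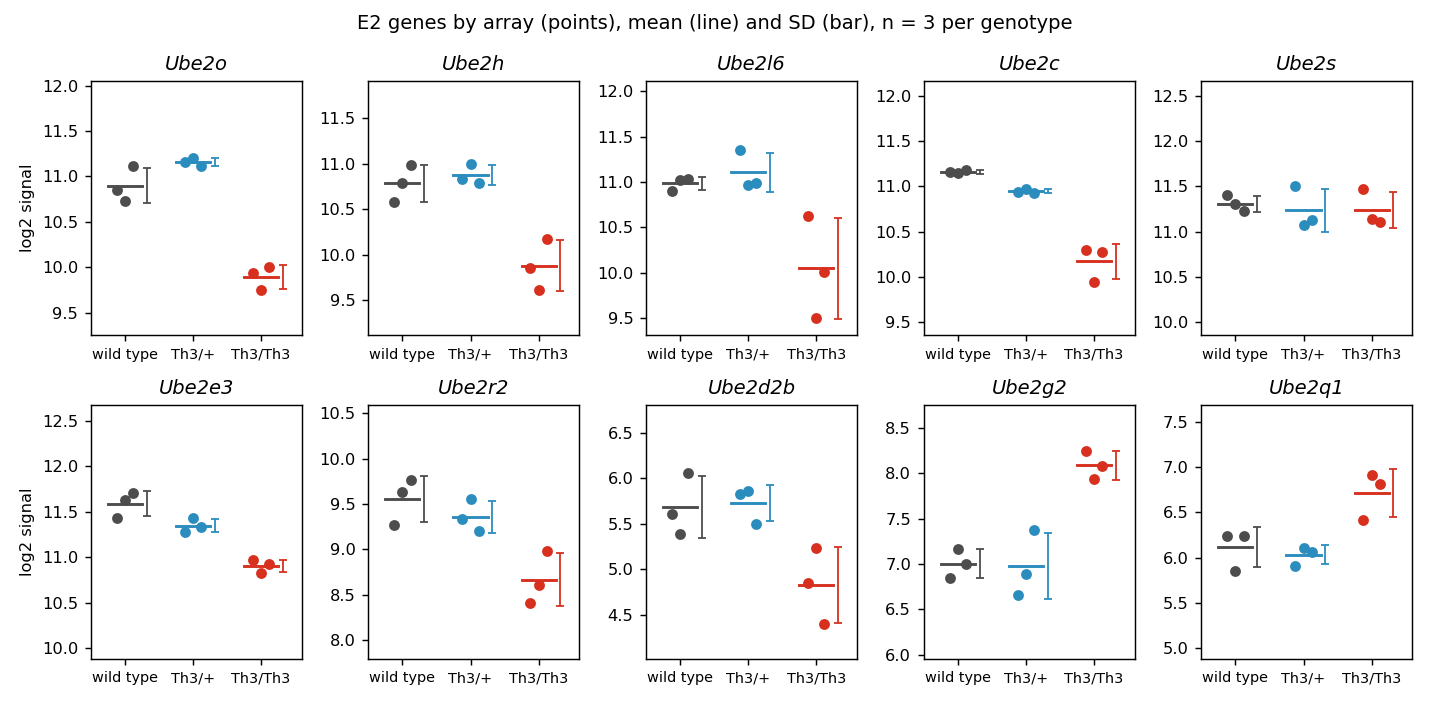
Log2 signal of 10 E2 genes on each array (points), with the mean of each genotype (line) and its SD (bar, n = 3), every panel spanning the same number of log2 units. In the 7 genes that fell the Th3/Th3 arrays lie below both other genotypes, in Ube2g2 and Ube2q1 above them, and in Ube2s the genotypes overlap.

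The upstream sequence of Ube2c is shown because it stands apart within the family. The CCAAT box and the cell cycle genes homology region are elements found before many genes that rise in mitosis. RefSeq promoter entries (GRCm38.p6) matched 29 of the 35 genes, and the 250 bases before each annotated start were searched on both strands for CCAAT and for TTTGAA, one form of the homology region. The Ube2c window held 6 matches to CCAAT, of which a pair overlap in CCAATTGG, and 1 to TTTGAA. Of 32851 windows in the table, 33.8% held a CCAAT and 16% a TTTGAA, 2.79% held at least 3 CCAAT and 0.0578% at least 6. Ube2t and Ube2f, neither of which was called in any contrast, each had a window with 3. A match is a description of these letters and not evidence of binding. The sequences run 5′ to 3′ up to the base before the start, with all matches to the searched motifs in capitals.
Ube2c, chr2:164769679-164769928, plus strand: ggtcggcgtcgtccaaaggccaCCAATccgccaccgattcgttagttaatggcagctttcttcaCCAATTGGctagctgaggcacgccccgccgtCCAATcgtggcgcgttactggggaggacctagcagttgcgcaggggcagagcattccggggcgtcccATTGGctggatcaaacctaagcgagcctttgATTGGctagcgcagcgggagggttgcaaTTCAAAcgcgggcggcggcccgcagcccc
Ube2t, chr1:134962315-134962564, plus strand: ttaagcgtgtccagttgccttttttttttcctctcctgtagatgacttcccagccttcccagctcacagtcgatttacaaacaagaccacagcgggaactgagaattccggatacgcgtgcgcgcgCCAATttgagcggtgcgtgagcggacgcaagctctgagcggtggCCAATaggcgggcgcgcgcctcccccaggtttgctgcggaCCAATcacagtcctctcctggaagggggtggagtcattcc
Ube2f, chr1:91250054-91250303, plus strand: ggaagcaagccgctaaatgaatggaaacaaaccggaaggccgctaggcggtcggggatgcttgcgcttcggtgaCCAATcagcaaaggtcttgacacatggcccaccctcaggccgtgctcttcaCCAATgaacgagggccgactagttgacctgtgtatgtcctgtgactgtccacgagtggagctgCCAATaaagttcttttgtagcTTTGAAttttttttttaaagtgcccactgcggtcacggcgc
Ube2h, chr6:30243804-30244053, minus strand: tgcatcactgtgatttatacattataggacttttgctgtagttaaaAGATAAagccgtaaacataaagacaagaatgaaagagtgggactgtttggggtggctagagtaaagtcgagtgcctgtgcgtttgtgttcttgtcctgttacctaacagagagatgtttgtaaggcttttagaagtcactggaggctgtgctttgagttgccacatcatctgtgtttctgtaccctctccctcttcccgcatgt
The Ube2h window is the one of its annotated starts that held the single AGATAA in the family, the letters of a site bound by GATA factors, which direct erythroid genes. AGATAA was present in 9.99% of all windows, so 1 gene of the 29 matched does not set the family apart. The other Ube2h window, chr6:30304540-30304789, lies farther upstream on the minus strand and held none of the motifs searched. Which start is used in these cells was not tested. The remaining searches were for CCACACCC (CACCC box, 3.20% of all windows), GAANNTTC (heat shock element, 6.69%) and TGACNNNGC (antioxidant response element, 10.2%), and these had 0 matches in the windows of the called genes. Ube2o, Ube2e3 and Ube2g2 were not matched.

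Ube2l6 carries ISG15, a ubiquitin relative induced by interferon, and is also abundant in late erythroblasts. It held 10.90, 11.02 and 11.03 for wild type, 11.35, 10.97 and 10.99 for Th3/+, and 10.63, 9.50 and 10.01 for Th3/Th3. The Th3/Th3 arrays were lower than all others but spread widely (SD 0.56, against 0.07 in wild type). The fall was by 0.94 (SE 0.24, adjusted p = 0.0327), and it lost its call without any 1 of the wild type arrays, Th3/+ replicate 2 or 3, or Th3/Th3 replicate 2 or 3 (adjusted p of 0.0507 to 0.0983). The call was also lost without the filter, with the Xist level as a covariate, or with only the compared genotypes fitted. Of the members grouped with it, Ube2f and Ube2z were measured, and neither was called against wild type. Ube2f, which carries NEDD8, differed by -0.07 (interval -0.34 to 0.21, adjusted p = 0.787). Ube2z, which works with the activating enzyme Uba6, differed by 0.28 (interval 0.03 to 0.53, adjusted p = 0.141).

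Ube2e3 belongs to the E family of enzymes that work with many ligases. It held 11.43, 11.63 and 11.70 for wild type, 11.28, 11.43 and 11.34 for Th3/+, and 10.96, 10.83 and 10.92 for Th3/Th3. The 3 genotypes again did not overlap, although the highest Th3/+ and the lowest wild type array were almost level. The fall to Th3/Th3 was by 0.68 (SE 0.09, adjusted p = 0.0015). Its relatives Ube2e1 and Ube2e2 differed by 0.17 (interval -0.08 to 0.41) and -0.18 (interval -0.43 to 0.08), with adjusted p = 0.388 and 0.386.

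Ube2d2b is an intronless copy of the broadly used enzyme Ube2d2a. It held 5.61, 5.39 and 6.06 for wild type, 5.82, 5.86 and 5.50 for Th3/+, and 4.84, 5.23 and 4.39 for Th3/Th3. These values were close to the filter level, which 8 of its 9 arrays exceeded and Th3/Th3 replicate 3 did not. It fell by 0.86 (SE 0.23, adjusted p = 0.0364). That call was lost without wild type replicate 1 or 3, Th3/+ replicate 1 or 2, or Th3/Th3 replicate 1 or 3 (adjusted p of 0.0501 to 0.12). Of its relatives, Ube2d2a differed by 0.30 (interval -0.10 to 0.70, adjusted p = 0.336) and Ube2d3 by 0.22 (interval -0.01 to 0.44, adjusted p = 0.206), and neither was called. Ube2d2b and Ube2d2a are near-identical, so their signals may not be fully separate. Ube2d1 and Ube2l3 differed by -0.05 and 0.05, and Ube2w, which marks the amino end of proteins, by 0.26, without passing.

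Ube2r2, a close relative of Cdc34 that extends chains for cullin ligases, held 9.27, 9.63 and 9.76 for wild type, 9.33, 9.55 and 9.20 for Th3/+, and 8.41, 8.61 and 8.98 for Th3/Th3. Its Th3/Th3 arrays lay below the rest, while Th3/+ and wild type overlapped. The fall was by 0.89 (SE 0.19, adjusted p = 0.014), and was no longer called without wild type replicate 2 or 3 (adjusted p = 0.054 and 0.0573). The other chain builders Ube2k and Ube2g1 differed by 0.15 (interval -0.11 to 0.40) and 0.36 (interval -0.02 to 0.74), with adjusted p = 0.474 and 0.213.

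Ube2g2 is the E2 of the degradation of misfolded proteins of the endoplasmic reticulum. It held 6.84, 7.16 and 6.995 for wild type, 6.66, 6.89 and 7.38 for Th3/+, and 8.25, 7.93 and 8.08 for Th3/Th3. All Th3/Th3 arrays were above all others. The rise was 1.09 (SE 0.19, adjusted p = 0.00593). The membrane-anchored enzymes of the same pathway were not called, Ube2j1 with a difference of 0.26 (interval 0.01 to 0.51, adjusted p = 0.183) and Ube2j2 with 0.03 (interval -0.30 to 0.35, adjusted p = 0.935).

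Ube2q1, of a family with a long amino-terminal extension, held 6.24, 5.86 and 6.24 for wild type, 5.91, 6.11 and 6.07 for Th3/+, and 6.42, 6.91 and 6.81 for Th3/Th3. The Th3/Th3 arrays were above all others, and Th3/+ and wild type overlapped. The rise was 0.60 (SE 0.16, adjusted p = 0.0347), and its call was lost without any 1 of the wild type arrays, Th3/+ replicate 2 or 3, or Th3/Th3 replicate 2 or 3 (adjusted p of 0.0554 to 0.118). Dropping the filter, adding the Xist level as a covariate, or fitting only the compared genotypes lost it too. Ube2q2 and Ube2ql1 differed by 0.20 and 0.03 and were not called.

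The 6 enzymes of DNA damage signalling and histone marking had 0 members called in either direction, and their differences ran from -0.42 to 0.46. Ube2t, which serves the Fanconi anaemia repair pathway, held 7.66, 7.52 and 7.48 for wild type, 7.50, 7.56 and 7.52 for Th3/+, and 7.57, 7.54 and 7.81 for Th3/Th3. These ranges overlapped, and the difference of 0.09 had an interval of -0.18 to 0.35 (adjusted p = 0.706). Ube2a and Ube2b, a pair that acts in bypass of damaged DNA and in histone ubiquitination, differed by 0.46 (adjusted p = 0.0862) and -0.01 (adjusted p = 0.981). Ube2n, which builds signalling chains, differed by -0.10, and its inactive partners Ube2v1 and Ube2v2, which lack the catalytic cysteine, by -0.42 (adjusted p = 0.082) and 0.29 (adjusted p = 0.506).

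Over the 22 members not called, differences lay between -0.42 and 0.46, with interval bounds from -0.72 to 0.82. Of these, 4 had an unadjusted p under 0.05 (Ube2a, Ube2v1, Ube2j1 and Ube2z). The arrays of Th3/Th3 and wild type did not overlap for 15 of the 31 members tested, beside 27.9% of all genes. The 4 genes that did not pass the filter were Ube2u, Ube2dnl1, Ube2dnl2 and Ube2cbp, with means over the 9 arrays of 2.98 to 3.96. For these no difference was tested.

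**Figure D2:**
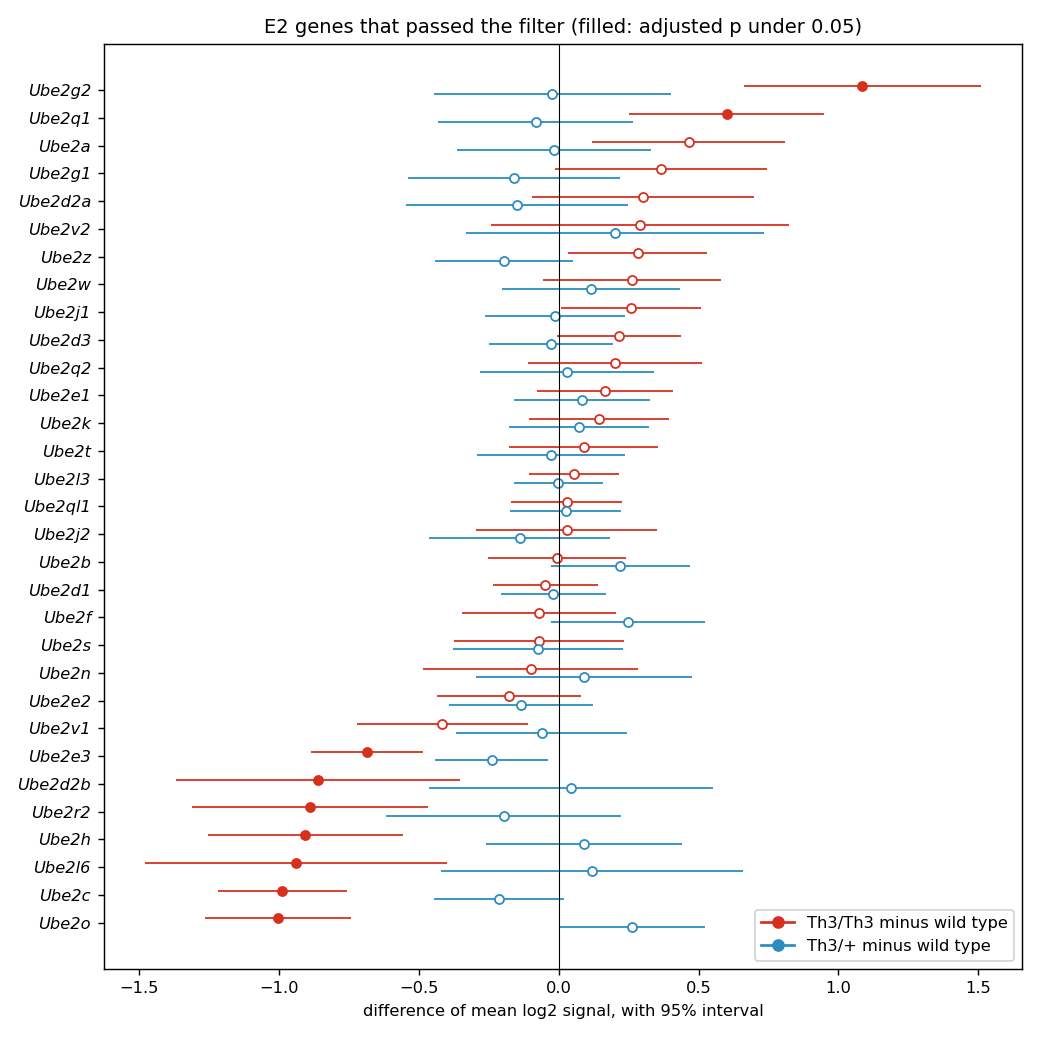
Difference of mean log2 signal from wild type for the 31 E2 genes that passed the filter, with 95% intervals, in Th3/Th3 (red) and Th3/+ (blue), filled where the adjusted p was under 0.05. Of the Th3/Th3 points 7 are filled on the left and 2 on the right, and no Th3/+ point is filled.

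Th3/+ against wild type asked whether 1 Th3 allele was enough for a change. By limma, 0 of the 31 members were called, and 2 had an unadjusted p under 0.05. Over all genes tested 0.0155% were called, all of them higher. The members with the smallest p were Ube2e3 with a difference of -0.24 (interval -0.44 to -0.04), Ube2o with 0.26 (interval 0.000995 to 0.52) and Ube2c with -0.21 (interval -0.44 to 0.02), and none passed after adjustment by limma. Differences over the family lay between -0.24 and 0.26, with interval bounds from -0.62 to 0.73. The arrays did not overlap for 5 members (Ube2c, Ube2e3, Ube2z, Ube2f and Ube2o), beside 7.76% of all genes. An exact permutation of 3 against 3 arrays cannot give a two-sided p under 0.1.

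Th3/Th3 against Th3/+ shares its Th3/Th3 arrays with the first comparison and is not independent of it. In this comparison 6 members were lower and 3 higher, beside 3.68% and 4.5% of all genes (8.18% in either direction). The lower members were Ube2o by a difference of -1.27 (SE 0.12, adjusted p = 0.000594), Ube2c by -0.78 (SE 0.10, adjusted p = 0.00304), Ube2h by -0.996 (SE 0.16, adjusted p = 0.0059), Ube2e3 by -0.44 (adjusted p = 0.0176), Ube2l6 by -1.06 (adjusted p = 0.0291) and Ube2d2b by -0.91 (adjusted p = 0.0421). Higher were Ube2g2 by 1.11 (adjusted p = 0.00836), Ube2q1 by 0.68 (adjusted p = 0.0296) and Ube2z by 0.48 (adjusted p = 0.0316). Ube2z held 8.77, 8.70 and 8.68 for wild type, 8.45, 8.53 and 8.59 for Th3/+, and 9.02, 8.90 and 9.08 for Th3/Th3, with no overlap between the genotypes and Th3/+ the lowest. Ube2r2 differed by -0.69 and missed the threshold (adjusted p = 0.0582). The arrays did not overlap for 17 members, beside 23.7% of all genes. Leaving out Th3/+ replicate 2 or 3 reduced the lower members to 3 (Ube2c, Ube2h and Ube2o), and leaving out any Th3/+ array or Th3/Th3 replicate 3 reduced the higher members to Ube2g2.

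Of the 9 members called between Th3/Th3 and wild type, 3 had a Th3/+ mean between those of the other genotypes, and 6 had one on the far side of wild type. The former were Ube2e3, whose Th3/+ difference was 35.1% of its Th3/Th3 difference, Ube2r2 with 22.1% and Ube2c with 21.6%. In the latter the Th3/+ difference was opposite in sign to the Th3/Th3 difference, from -2.17% of it in Ube2g2 to -26.0% in Ube2o. The Th3/+ difference of Ube2g2 was only -0.02 (SE 0.19), so its sign carries little weight. How all called genes divide between these groups was not counted, so the split is not a trait of the family. None of these Th3/+ differences passed the test. Set against the midpoint of wild type and Th3/Th3, the Th3/+ mean of Ube2o was higher by 0.76 (SE 0.10, adjusted p = 0.0479), the only member called. Over all genes 0.0698% were called higher and 0.0233% lower against that midpoint (0.093% in either direction). That call was lost without wild type replicate 1 or 2, any of the Th3/+ arrays, or Th3/Th3 replicate 2 or 3, with adjusted p of up to 0.271 over the alternatives tried. Ube2h and Ube2c lay 0.54 and 0.28 above their midpoints (adjusted p = 0.223 and 0.395).

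The other steps of the pathway were described with lists drawn up by function. Their called shares are to be read against the 13.1% called over all genes. Of 7 activating enzymes measured, 1 fell and 0 rose (14.3% called, median 0.10). It was Uba7, the activating enzyme of ISG15 and thus the partner of Ube2l6, by 0.58 (adjusted p = 0.0212), a call lost without wild type replicate 2 or 3 or Th3/Th3 replicate 2 or 3. Uba3, which activates NEDD8, differed by 0.64 (adjusted p = 0.0586). Of 7 ubiquitin-like precursors measured, 5 rose and 0 fell (71.4% called, median 0.42). They were Ubl5, a ubiquitin relative in RNA splicing, by 0.48 (adjusted p = 0.000299), Urm1, which modifies transfer RNA, by 1.26 (adjusted p = 0.0025), Ufm1, a modifier tied to the endoplasmic reticulum, by 1.26 (adjusted p = 0.00431), Nedd8 by 0.40 (adjusted p = 0.00429) and Fau, a ribosomal protein fused to a ubiquitin relative. With the mean of all its probe sets Ufm1 rose by 0.61. The genes of ubiquitin itself were not analysed here. Of 7 conjugating enzymes and E2-like proteins under other symbols, 2 rose, Atg3, the conjugating enzyme of autophagy, by 1.10 (adjusted p = 0.0102) and Aktip by 0.63 (adjusted p = 0.00619), and 0 fell (28.6% called). Aktip was weak, with means of 4.51 in wild type, 4.66 in Th3/+ and 5.14 in Th3/Th3. It exceeded the filter level on 1 wild type, 2 Th3/+ and 3 Th3/Th3 arrays, so its call lies near the background.

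Among the ligases, 5 of 17 genes of the anaphase-promoting complex and its regulators rose and 2 fell (41.2% called, beside 13.1% of all genes, median 0.05). The core subunits Cdc26, Anapc7, Anapc16 and Anapc4 rose by 0.98, 1.01, 0.86 and 1.07 (adjusted p = 0.00423, 0.00615, 0.00619 and 0.00648), opposite to Ube2c. The inhibitor Fbxo5 fell by 0.83 (adjusted p = 0.00431) and the activator Fzr1 by 1.08 (adjusted p = 0.0212), the latter not called without wild type replicate 1 or 3 or Th3/Th3 replicate 3. In the CTLH complex, the ligase of Ube2h, 2 of 11 fell and 0 rose (18.2% called, median -0.10). These were Wdr26 by 1.09 (SE 0.09, adjusted p = 0.000132) and Ranbp10 by 1.15 (SE 0.16, adjusted p = 0.00223), both non-catalytic subunits. The catalytic subunit Maea differed by 0.15 (adjusted p = 0.489). Of 6 ligases of the endoplasmic reticulum 1 fell (16.7% called), Rnf139 by 0.70 (adjusted p = 0.036, not called without wild type replicate 2 or 3, Th3/+ replicate 2 or 3, or Th3/Th3 replicate 1 or 3), and Syvn1, a main ligase of that pathway, differed by 0.45 (adjusted p = 0.0818). Of 8 ligases of the DNA damage enzymes 0 were called, with Rad18 at -0.63 (adjusted p = 0.0661) and Ubr2 at 0.54 (adjusted p = 0.0877). In Th3/+ against wild type 0 genes of these lists were called.

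**Figure D3:**
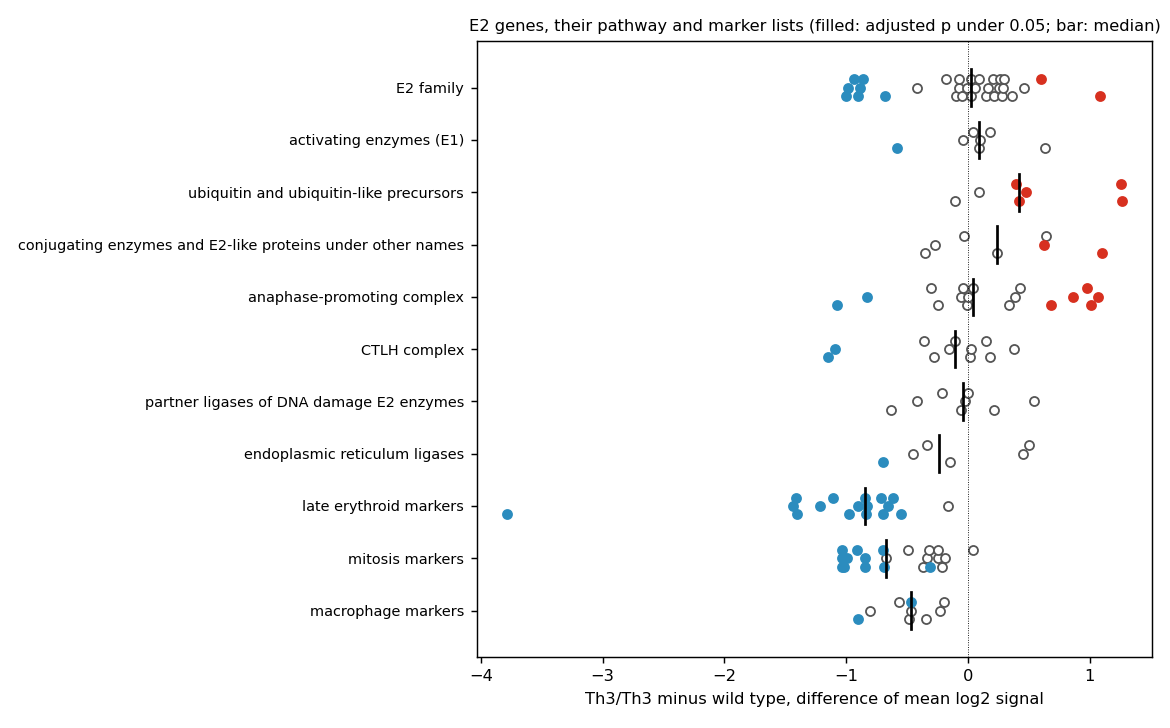
Th3/Th3 minus wild type (log2) for each measured gene of the E2 family, of the pathway lists and of 3 marker lists, filled blue where lower and red where higher at an adjusted p under 0.05, with a bar at the median. The E2 family lies around a median of 0.03 with 7 genes set to the left, the ubiquitin-like precursors lie around 0.42 and the late erythroid markers around -0.85.

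Of the 35 genes, 9 had more than 1 probe set. In 7 of these the brightest probe set carried a number that lay among probe sets of another chromosome than the gene's own (at most 3.33% of the 30 nearest named neighbours shared its chromosome, against at least 90% for the rest). Whether these probe sets measure copies of the gene elsewhere in the genome was not tested. Only Ube2h among the called members was affected, and its own-chromosome probe set gave -0.93 (SE 0.16, adjusted p = 0.0057) beside -0.91. For Ube2l3 the probe sets disagreed: the own-chromosome one gave 0.53 (adjusted p = 0.0654) and the others 0.05 and 0.03. For Ube2v1 the own-chromosome probe set, at a mean of 5.99, gave 0.05 (adjusted p = 0.944), while the brighter ones gave -0.42 and -0.44.

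**Figure D4:**
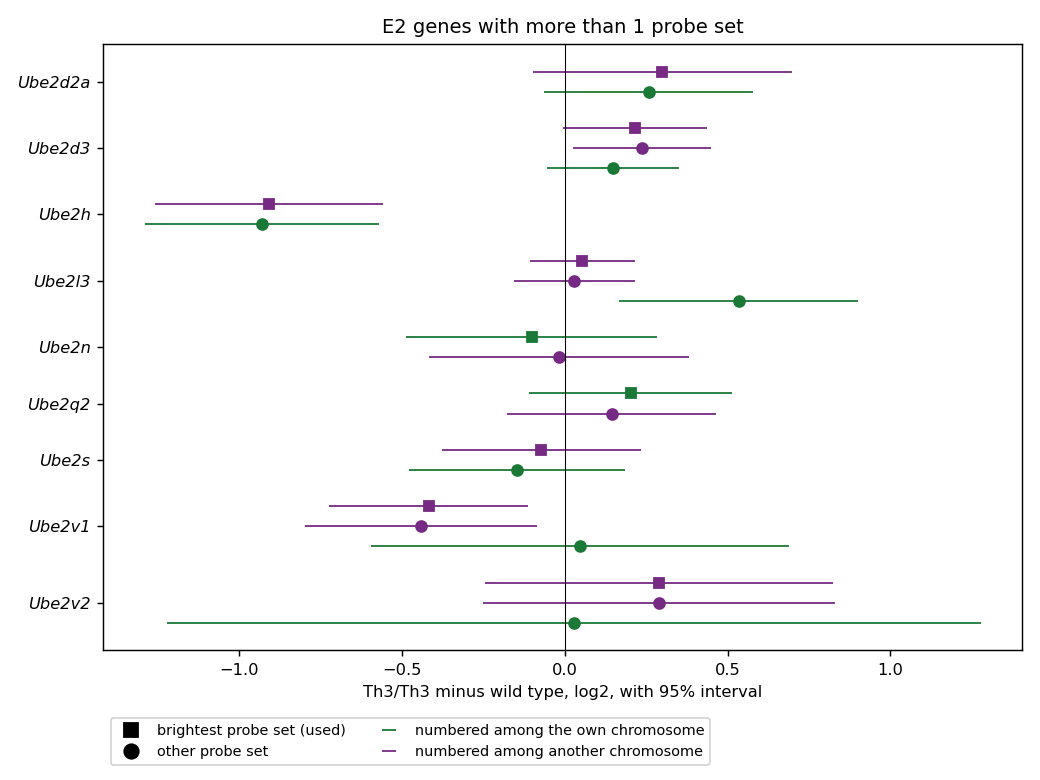
Th3/Th3 minus wild type (log2) with 95% intervals for every probe set of the 9 E2 genes with more than 1, as squares for the probe set used and circles for the others, green where its number lies among the gene's own chromosome and purple otherwise. The Ube2h probe sets give -0.91 and -0.93, and those of Ube2l3 and Ube2v1 differ.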

How the data were processed

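RNA of 9 samples was measured on whole-transcript arrays after amplification of 35 ng, per the labels' protocols. The authors deposited 1 log2 value per probe set and array, log2 being taken from the range of the values, and the submitters' processing notes name MAS5. Settings, background correction and genome build: not given in the sources used here. Deposited values entered the fit unchanged. Arrays have no read depth, and their number limits the precision.

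Of 35556 probe sets, 6617 numbered below the first annotated one were taken as controls and left out. The filter kept 17742 probe sets whose signal exceeded the 40th percentile on 3 or more arrays. Symbols came from the platform annotation, with 21789 probe sets listed for 1 gene, 1621 for several and 5529 for none, and 21698 of the first had a gene identifier in the RefSeq table. The 9 arrays entered 1 limma fit (version 3.58.1, R 4.3.3) with a mean for each genotype (eBayes with trend), with two-sided contrasts and Benjamini-Hochberg adjustment over all kept probe sets. An adjusted p under 0.05 was called. The fit was tested on simulated data with known fold changes. Noise there was drawn independently for each value, so the simulation leaves out deviations shared between arrays.

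Members and lists were chosen with earlier results of these data known. Arrays were shown for every member called and for Ube2o, Ube2h, Ube2l6, Ube2c, Ube2s and Ube2t, and up to 4 called genes of each list, or else the 2 with the smallest p. Uba3, Fau, Anapc4, Fzr1, Maea and Syvn1 were named in addition, with their values seen. The alternatives were other filters and scalings, no trend, a replicate block, mean probe sets, an Xist covariate, fewer arrays and, chosen after seeing the data, own-chromosome probe sets.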

Additional observations from a re-analysis of the deposited data

How the results depend on the processing

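Over the alternatives tried, the calls between Th3/Th3 and wild type of Ube2o, Ube2c, Ube2h, Ube2e3 and Ube2g2 held in all 20, and those of Ube2l6, Ube2q1 and Ube2d2b in 10 of 20 each. Own-chromosome probe sets, 1 of these 20, could change no called member but Ube2h, so for the others this alternative was no test. Of the refitted values of called members, 295 stayed called, 84 did not pass and 0 changed sign. Without the filter, with Xist as a covariate, or with only the genotypes compared, the members called higher in Th3/Th3 against wild type were 1, Ube2g2, in place of 2. With Xist as a covariate or only the genotypes compared, those higher in Th3/Th3 against Th3/+ were 1 in place of 3. Leaving out single arrays gave 4 to 7 lower and 1 to 3 higher members against wild type, the 4 without wild type replicate 3, and 3 to 6 lower and 1 to 3 higher against Th3/+. It gave 0 to 1 members off the midpoint. The midpoint call was 0 without the filter, with median-centred arrays, without the trend, with the replicate block, with Xist as a covariate and without the pair of arrays that stood apart. The cause of these changes was not tested. In the pathway lists, leaving out single arrays gave 3 to 7 lower genes and 11 to 14 higher ones, the 3 when replicate 3 of either wild type or Th3/Th3 was missing.

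Deviations of same-numbered arrays correlated at 0.13 to 0.279 for replicate 1, 0.165 to 0.355 for replicate 3 and -0.125 to 0.0666 for replicate 2. Since replicate 2 stayed under 0.1, the numbers were not taken to pair the samples, although the other 2 moved together. The second principal component also fell from replicate 1 to replicate 3 in every genotype. It gave 7.71, 5.16 and -12.0 for wild type, 20.5, -10.1 and -13.0 for Th3/+, and 25.5, -8.90 and -14.9 for Th3/Th3. Whether the replicate number marks a batch was not tested. The replicate block left 6 lower and 2 higher members against wild type, with Ube2d2b lost. Own-chromosome probe sets, added after seeing the data, left all counts as they were, but among the called members they could change only Ube2h. How the deposited values were summarised from the probes is not known, and weak probe sets such as that of Ube2d2b lie near the background of the array.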

Other observations

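Deubiquitinases of the USP family, which remove the ubiquitin that E2 enzymes help to attach, were counted after the E2 results were known. Of 53 genes with a probe set, 42 passed the filter, and in Th3/Th3 against wild type 5 fell and 1 rose (limma, adjusted p under 0.05; median -0.20, beside -0.00038 over all genes). These are 14.3% of the family, near the 13.1% called over all genes in either direction. By direction, 5.37% of all genes were lower and 7.71% higher, whereas most called USP genes were lower. Usp32 fell from 11.50 to 9.97, by 1.52 (SE 0.14, adjusted p = 0.00031). Usp7, which stabilises p53 and its ligase, fell from 11.35 to 10.17, by 1.17 (SE 0.10, adjusted p = 0.000218). Usp25 fell by 0.99 (adjusted p = 0.00366). Usp3, which acts on histones, rose from 7.37 to 8.35, by 0.98 (SE 0.12, adjusted p = 0.00128). These 4 kept their calls in all 20 alternatives, whereas Usp15 (-0.64, adjusted p = 0.0227) kept it in 14 and Usp31 (-1.54, adjusted p = 0.0453) in 7. Own-chromosome probe sets, 1 of these 20, were exchanged for E2 genes only and left the fits of USP genes as they were. In Th3/+ against wild type 0 of the 42 were called, and 0.0155% of all genes were.

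A further 4 probe sets were listed for an E2 symbol together with a predicted gene, and were left out of the family. The one shared by Ube2f and Gm5434 differed by -0.02 between Th3/Th3 and wild type and by 0.28 between Th3/+ and wild type (adjusted p = 0.94 and 1.00), beside -0.07 and 0.25 for Ube2f itself. The one shared by Ube2j2 and Gm5801 differed by 0.30 between Th3/Th3 and wild type (adjusted p = 0.198), and the pair shared by Ube2l3 and Gm6098 by 0.09 and 0.05 (adjusted p = 0.568 and 0.721).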
